A study of Mus musculus with 6 samples.

Results

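The genes of natural killer and cytotoxic effector function were followed in a mouse lung tumour model: Gzma, Gzmb, Prf1, Nkg7, Klrd1, Klrk1, Ncr1, Il2rb, Xcl1 and Ccl5. They were chosen by symbol, as every probe set that the array annotation assigns to one of these genes alone, which gave 12 probe sets for the 10 genes, of 45037 probe sets and 18193 genes in all. RNA came from subcutaneous tumours of 344SQ, a lung adenocarcinoma line taken from a KrasLA1/+; p53R172HdelG/+ mouse, which had been injected into syngeneic mice and spreads widely from such sites. Both groups share that single line, its alleles and the growth site; they differ in the fraction collected by flow cytometry, CD133 high (3 arrays) or CD133 low (3 arrays). CD133 is a membrane protein, the product of Prom1, by which progenitor-like tumour cells are often sorted. No age of the animals, no treatment and no removal of host leukocytes is given in the labels used here.

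Natural killer cells and cytotoxic T cells kill a target by releasing granules. Perforin opens the target membrane, granzymes enter and start its death, and surface receptors decide whether the granules are released. The same cells secrete chemokines that draw in dendritic cells and further lymphocytes. Apart from Ncr1, which is largely restricted to natural killer and related innate cells, these genes are shared between natural killer cells and activated T cells, so their RNA alone does not name the cell.

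Values are log2 probe set values on each array, and a difference is the CD133 high mean minus the CD133 low mean. Prom1 stood at 6.40 to 6.80 on the CD133 high arrays and 5.49 to 6.05 on the CD133 low arrays, an order that matches the labels (difference 0.79, limma adjusted p = 0.297). Host cells were present in both fractions: Ptprc, the CD45 gene of all leukocytes, lay between 12.74 and 13.20 on all arrays, and Epcam, an epithelial surface marker, between 10.20 and 10.86. CD133 high replicates 2 and 3 stood apart from the other 4 arrays. Their bacterial hybridisation controls averaged 11.29 and 11.04 against 10.19 to 10.51 elsewhere, and the 3' control probe set of Gapdh exceeded that of the middle of the transcript by 0.44 and 0.46 against −0.13 to −0.07 elsewhere. The labels do not state whether arrays within a fraction are from different tumours, so p-values reflect only how these samples vary, possibly for technical reasons.

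Cytotoxic effector genes had lower values in the CD133 high fraction, and for 1 of the 10 the difference passed the test. At its brightest probe set, each of the 10 genes had all 3 CD133 high arrays below all 3 CD133 low arrays, against 12.8% of all genes, and 0 had them all above, against 10.8%. The median difference was −1.13, beside 0.0013 over all genes, and 7 of the 10 genes differed by less than −1, as did 5.13% of all genes. Xcl1 alone fell in limma after Benjamini-Hochberg adjustment over all probe sets at 0.05, where 0.231% of genes fell and 0.022% rose. At an unadjusted p under 0.05, 8 of the 10 were lower and 0 higher, beside 9.94% of all genes lower and 8.3% higher. In sorted bulk RNA, fewer cells of a type and less RNA per cell cannot be told apart.

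**Figure D1:**
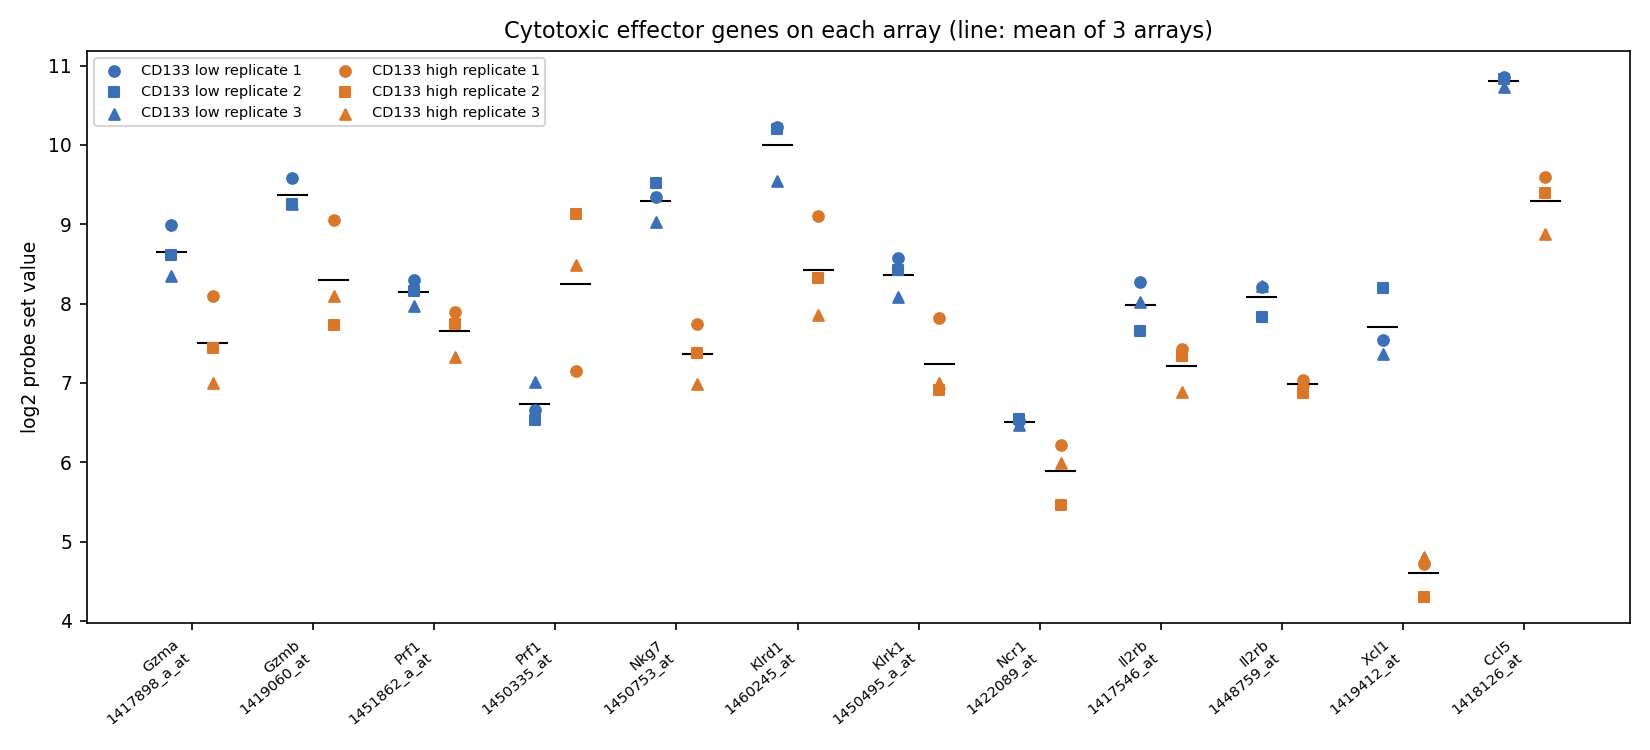
Log2 value of each of the 12 probe sets (horizontal axis, gene and probe set) on each of the 6 arrays, with CD133 low in blue, CD133 high in orange, 1 marker shape per replicate number and a line at the mean of 3 arrays. The orange points lie below the blue points for 11 probe sets and above them for 1, the second probe set of Prf1.

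Among the granule genes, Nkg7, a granule membrane protein needed for their release, had the largest difference. Nkg7 read 9.35, 9.52 and 9.03 on the CD133 low arrays, against 7.74, 7.38 and 6.98 on the CD133 high arrays. No CD133 high array came within 1 log2 unit of a CD133 low array. Its difference of −1.93 (SE 0.24, 95% interval −2.51 to −1.36), a 3.82-fold lower level, missed the threshold narrowly (limma adjusted p = 0.0533). With equal medians or equal 75th percentiles between arrays it passed (adjusted p = 0.0315 and 0.0289), and with quantile normalization it did not (adjusted p = 0.0509). The adjusted p under all alternatives ran from 0.0040 to 0.389.

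The granzymes differed less and more unevenly. Gzma, which encodes granzyme A, a trypsin-like protease of the granules, read 8.99, 8.61 and 8.35 in the CD133 low fraction and 8.09, 7.44 and 7.004 in the CD133 high fraction. The highest CD133 high array of Gzma was close to its lowest CD133 low array. The difference was −1.14 (SE 0.31, limma adjusted p = 0.289). Gzmb, whose product granzyme B cleaves caspases, read 9.59, 9.26 and 9.26 in the CD133 low fraction and 9.06, 7.73 and 8.10 in the CD133 high fraction. CD133 high replicate 1 thus lay just under the CD133 low arrays, and replicates 2 and 3 over 1 log2 unit lower. The difference of Gzmb was −1.07 (SE 0.34, limma adjusted p = 0.297).

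Prf1, the perforin gene, was measured by 2 probe sets that pointed in opposite directions. The brighter one, 1451862_a_at, read 8.30, 8.15 and 7.97 in the CD133 low fraction and 7.89, 7.75 and 7.32 in the CD133 high fraction. The other, 1450335_at, read 6.65, 6.53 and 7.01 against 7.15, 9.12 and 8.49. The fractions of Prf1 did not overlap at either probe set, in the first with CD133 high below, as for 10.5% of all probe sets, and in the second with CD133 high above, as for 10.3%. Their differences were −0.49 (SE 0.21, 95% interval −0.98 to 0.0054, limma adjusted p = 0.321) and 1.52 (SE 0.49, 95% interval 0.37 to 2.67, adjusted p = 0.297). The difference at 1450335_at was 0.41 on CD133 high replicate 1 and 2.39 and 1.75 on replicates 2 and 3, where the hybridisation controls were higher as well. No direction for perforin RNA can be given from these arrays, since the mean of both probe sets differed by 0.52 (adjusted p = 0.366).

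**Figure D2:**
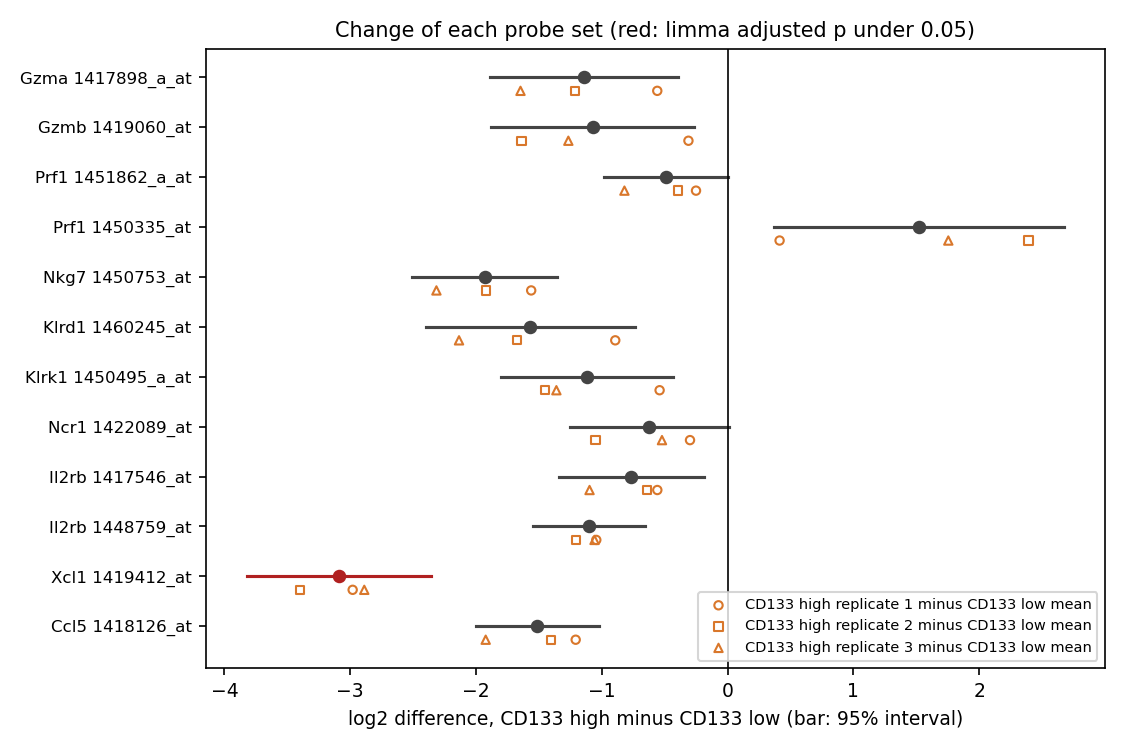
Log2 difference between CD133 high and CD133 low (horizontal axis) for each probe set, with its 95% interval from limma; open symbols under each bar give the 3 CD133 high arrays minus the CD133 low mean. Xcl1, in red, is the single probe set past the threshold, at −3.09, and Prf1 1450335_at is the single one to the right of 0, at 1.52.

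The receptor genes had lower values as well, and none passed the test. Klrd1 encodes CD94, which pairs with NKG2 chains to read the class Ib molecule Qa-1. It read 10.23, 10.20 and 9.55 on the CD133 low arrays, against 9.10, 8.32 and 7.86 on the CD133 high arrays, a difference of −1.57 (SE 0.35, limma adjusted p = 0.222). Klrk1 encodes NKG2D, an activating receptor for ligands that stressed and transformed cells display. It read 8.58, 8.42 and 8.09 against 7.82, 6.91 and 7.001, a difference of −1.12 (SE 0.29, limma adjusted p = 0.276). In Klrk1 as in Klrd1 the CD133 high array nearest the CD133 low arrays was replicate 1.

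Ncr1 encodes NKp46, an activating receptor of natural killer cells. Its probe set was dimmer, at 6.52, 6.55 and 6.47 in the CD133 low fraction and 6.21, 5.46 and 5.99 in the CD133 high fraction. The CD133 low arrays spread by an SD of 0.042 and the CD133 high arrays by 0.386. The difference of Ncr1 was −0.62 (SE 0.27, 95% interval −1.26 to 0.0076, limma adjusted p = 0.321).

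Il2rb, the beta chain through which interleukin-2 and interleukin-15 sustain these cells, was lower at both of its probe sets. Probe set 1417546_at read 8.27, 7.65 and 8.02 in the CD133 low fraction and 7.42, 7.34 and 6.88 in the CD133 high fraction. Probe set 1448759_at read 8.21, 7.83 and 8.22 against 7.04, 6.88 and 7.03. At the second, the 3 CD133 high arrays had an SD of 0.0907, and replicate 1 lay level with replicate 3. The differences were −0.77 (SE 0.24) and −1.10 (SE 0.19), with limma adjusted p of 0.297 and 0.117.

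Of the chemokines, Xcl1 had the largest difference of the 10 genes. Xcl1 encodes lymphotactin, which draws in cross-presenting dendritic cells through the receptor Xcr1. It read 7.54, 8.20 and 7.37 on the CD133 low arrays, against 4.72, 4.30 and 4.81 on the CD133 high arrays. All 3 CD133 high arrays, replicate 1 included, lay far below the CD133 low arrays. Xcl1 fell by 3.09 (SE 0.31, 95% interval −3.82 to −2.36, limma adjusted p = 0.0240), from 7.70 ± 0.439 to 4.61 ± 0.274 (SD, n = 3 arrays each).

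The size of that fall is uncertain. No detection calls were used here, and values near 4 to 5 lie low on the scale of the array. The CD133 high arrays hold the 3 values below 5 among the 60 values of the 10 genes at their brightest probe sets. With values below 5 set to 5, Xcl1 was 6.50-fold lower and lost its call (limma adjusted p = 0.0750). That 5 is a setting, and a higher one would give a smaller fold. The call was also lost without a variance trend (adjusted p = 0.0612) and when the mean hybridisation control entered the model (adjusted p = 0.103). With CD133 high replicate 1 alone, or without any single array except CD133 high replicate 1, at most 1 of all probe sets was called, so the loss of the Xcl1 call there (adjusted p = 0.151 to 0.251) says little about Xcl1. Its difference stayed between −3.26 and −2.70 in all of the 18 alternatives that kept Xcl1.

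Ccl5, also called RANTES, is a chemokine of T cells and natural killer cells that attracts further leukocytes. It read 10.86, 10.83 and 10.73 on the CD133 low arrays, against 9.60, 9.40 and 8.88 on the CD133 high arrays. The CD133 low arrays agreed closely, with an SD of 0.0690, and every CD133 high array lay over 1 log2 unit lower. The difference was −1.51 (SE 0.21, 95% interval −2.00 to −1.02), a 2.85-fold lower level, with an adjusted p of 0.0664 in limma. Equal medians or equal 75th percentiles brought Ccl5 past the threshold (adjusted p = 0.0389 and 0.0405), and quantile normalization did not (adjusted p = 0.0579). The adjusted p of Ccl5 under all alternatives ran from 0.0046 to 0.433.

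The promoter of Xcl1, the gene that passed, is shown because it carries letters of several lymphocyte factors. The 250 bases before its start are chr1:164935523-164935772 on the minus strand of GRCm38.p6, from RefSeq. Capitals mark matches, on either strand, to TGTGGT (Runx), TCACAC (T-box) and GGAAGT (ETS), which do not overlap here. The fourth motif searched, TTCNNNGAA (STAT), is not in this window.
Xcl1: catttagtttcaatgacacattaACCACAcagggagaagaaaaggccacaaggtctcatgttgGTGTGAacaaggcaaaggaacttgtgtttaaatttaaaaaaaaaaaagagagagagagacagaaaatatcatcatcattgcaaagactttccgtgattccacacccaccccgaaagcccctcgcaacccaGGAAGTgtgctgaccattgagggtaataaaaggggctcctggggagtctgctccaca

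Promoter windows of 7 of the 10 genes matched by symbol, and none did for Klrd1, Il2rb and Ccl5. The Runx letters were in 7 of these 7, beside 14% of 32851 promoter windows of the same length. The T-box letters were in 4 of 7 (12.3% of all windows), the ETS letters in 2 (19.7%) and the STAT letters in 1 (7.02%). A match of letters is a description of the sequence and shows no binding. The 30 bases around the match nearest the start are given for each of the 7 except Xcl1, 5′ to 3′ on the gene's strand. Capitals mark the Runx letters or their reverse complement. The matches differ in strand and in flanking bases.
Gzma: gagaagaacaaaACCACAtcctttgcactc
Gzmb: tgtgggttctgcTGTGGTtacttcatgatt
Prf1: tgggaacctgtgACCACActctgggggcag
Nkg7: gggcccacccctACCACAtaggaggagagg
Klrk1: tgatagctgtgcTGTGGTtgtgtgggggtt
Ncr1: caggcctcacccACCACAtcctgtgcatct

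These stretches are chr13:113101014-113101043 for Gzma and chr14:56262351-56262380 for Gzmb, both on the minus strand. They are chr10:61297694-61297723 for Prf1, chr7:43437043-43437072 for Nkg7 and chr7:4337662-4337691 for Ncr1, all on the plus strand, and chr6:129623976-129624005 for Klrk1 on the minus strand. The 4 genes whose windows hold both Runx and T-box letters were Xcl1, Nkg7, Gzmb and Ncr1, with differences of −3.09, −1.93, −1.07 and −0.62. Gzma, Klrk1 and Prf1 (1451862_a_at), whose windows hold Runx but no T-box letters, had differences of −1.14, −1.12 and −0.49. A link between letters and differences was not tested.

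The 10 genes did not move evenly over the CD133 high arrays. Relative to the CD133 low mean of each gene, their median was −0.56 on CD133 high replicate 1, −1.43 on replicate 2 and −1.50 on replicate 3, while the median of all genes lay between −0.04 and 0.04. For 9 of the 10 genes, replicate 1 was the highest CD133 high array, Xcl1 being the exception. The lowest of all 6 arrays was replicate 3 for 6 genes and replicate 2 for 4. On replicate 1 alone, Xcl1 stood at −2.98, Nkg7 at −1.56 and Ccl5 at −1.21, whereas Gzmb stood at −0.31, Ncr1 at −0.30 and Prf1 (1451862_a_at) at −0.25. This order was not particular to the 10 genes. Over replicates 1, 2 and 3, medians were −0.50, −1.28 and −1.49 for mast cell and basophil markers. They were 0.12, −0.92 and −1.15 for pan-leukocyte and 0.67, −0.33 and −0.90 for neutrophil markers. B-cell markers were lowest on replicate 1, at −2.14, −1.18 and −1.39.

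Without CD133 high replicate 1, 7 of the 10 genes fell, where 14.6% of all genes fell, and the median was −1.44. The genes without a call there were Prf1, Il2rb and Ncr1 (limma adjusted p = 0.0746, 0.0587 and 0.0768). With the mean hybridisation control as a covariate no member passed in limma, while 61 of all 45037 probe sets fell and 8 rose. There 4 members were lower at an unadjusted p under 0.05 in limma, beside 1536 of all probe sets lower and 2099 higher. The member median was −0.61. In that fit Xcl1 kept a difference of −3.09, Nkg7 of −1.72 and Ccl5 of −1.31, while Gzmb came to −0.26 and Ncr1 to −0.25. At their brightest probe sets, all 10 genes remained lower in both fits and under each of the 3 scalings tried. For Prf1 this covers 1451862_a_at alone.

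**Figure D3:**
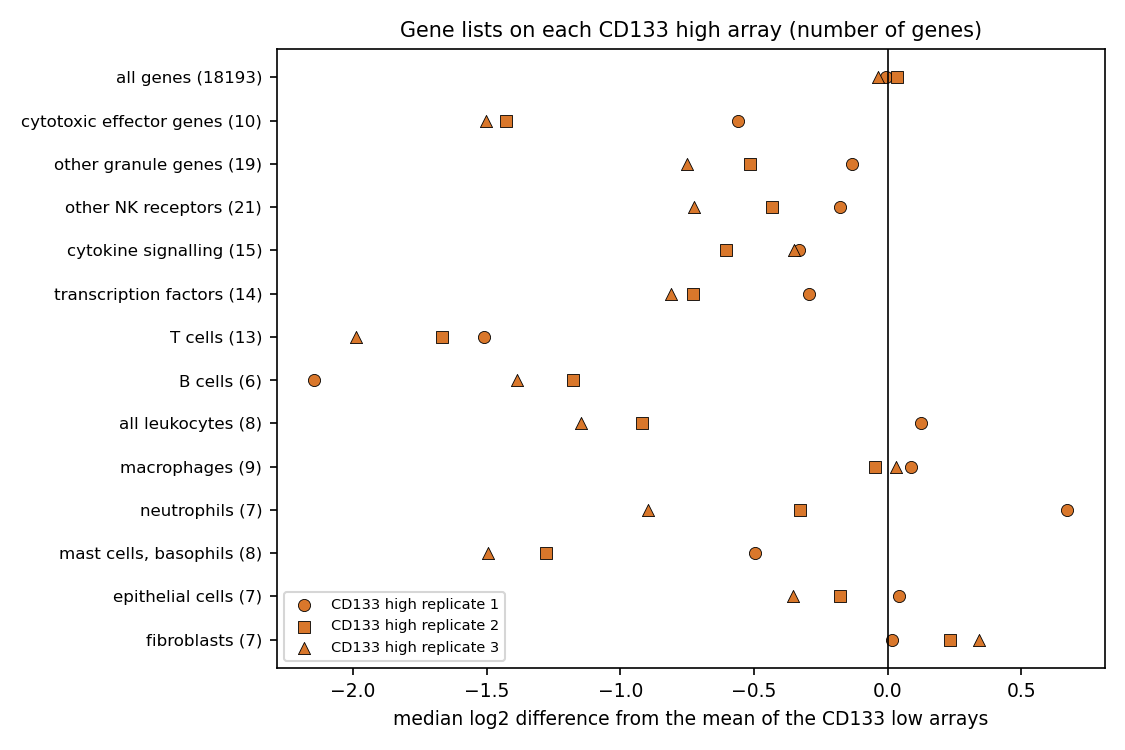
Median log2 difference from the mean of the CD133 low arrays (horizontal axis) for gene lists, with 1 symbol per CD133 high array and the number of measured genes in brackets. Cytotoxic effector genes lie at −0.56 on replicate 1 and at −1.43 and −1.50 on replicates 2 and 3, while T-cell markers lie between −1.99 and −1.51 on all 3 arrays.

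Other genes of the killing machinery had smaller differences as a list. Of 19 further granule, exocytosis and death ligand genes, 0 passed in limma, 8 were lower and 0 higher at an unadjusted p under 0.05, and the median was −0.36. Gzmk, a granzyme of memory T cells, read 9.73, 9.73 and 9.65 on the CD133 low arrays, against 8.47, 8.85 and 8.46 on the CD133 high arrays (difference −1.11, adjusted p = 0.0753). Ctsw, a cathepsin of cytotoxic lymphocytes, differed by −1.87 (adjusted p = 0.0807), and Fasl, the death ligand of the Fas receptor, by −1.35 (adjusted p = 0.237). Serpinb9, an inhibitor that protects killer cells from granzyme B, differed by −0.54 (adjusted p = 0.272). Besides Gzmk, the listed granzymes Gzmf, Gzmc and Gzmd differed by −1.87, −1.63 and −1.33, more than Gzma and Gzmb. Gzmg, Gzme and Gzmm differed by −0.47, −0.22 and 0.40.

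Of 21 measured natural killer receptors and adaptors, out of 28 symbols listed, 0 passed in limma. At an unadjusted p under 0.05, 8 were lower and 1 higher, and the median was −0.41. Slamf7, an activating receptor also present on plasma cells, differed by −2.17, and Sh2d1a, the SAP adaptor of that receptor family, by −2.11 (adjusted p = 0.0742 for both). Klrc1, the NKG2A chain that pairs with the product of Klrd1, read 9.13, 9.20 and 9.32 against 8.12, 8.28 and 8.34 (difference −0.97, adjusted p = 0.0854). Unlike Klrd1, Klrc1 was not highest on CD133 high replicate 1 among the CD133 high arrays. Cd7, a surface protein of T and natural killer cells, differed by −1.17 (adjusted p = 0.110).

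Hcst, the adaptor through which NKG2D signals, was not named by rank and is given because of Klrk1. It read 9.65, 9.89 and 9.29 on the CD133 low arrays, against 9.31, 9.56 and 8.73 on the CD133 high arrays, so the fractions overlapped (difference −0.41, limma adjusted p = 0.445). Of 12 listed ligands of NKG2D, NKG2A and CD226, 4 had a probe set of their own and none passed in limma, with 1 higher at an unadjusted p under 0.05. H60c, a ligand of NKG2D, differed by 1.35 (adjusted p = 0.304) and Ulbp1, another, by 0.42 (adjusted p = 0.567). The CD226 ligands Nectin2 and Pvr differed by 0.17 and −0.10 (adjusted p = 0.620 and 0.880).

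Cytokine and signalling genes were divided. Of 15, 0 passed in limma, 6 were lower and 1 higher at an unadjusted p under 0.05, and the median was −0.34. Il15, the cytokine that signals through Il2rb to natural killer cells, read 7.49, 7.16 and 7.29 on the CD133 low arrays, against 8.53, 8.94 and 9.35 on the CD133 high arrays. The fractions of Il15 lay apart in the direction opposite to Il2rb (difference 1.62, SE 0.24, adjusted p = 0.0808). Il18r1, a chain of the interleukin-18 receptor, differed by −1.56, the receptor gene Il21r by −0.90, and Ifng, the interferon gamma gene, by −2.28 (adjusted p = 0.103, 0.133 and 0.159).

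Among 13 chemokine and trafficking genes, Cxcr6, a receptor of activated T and natural killer cells, fell, with 2 lower and 1 higher at an unadjusted p under 0.05 and a median of −0.18. Cxcr6 read 8.99, 9.04 and 9.07 on the CD133 low arrays, against 7.46, 6.89 and 6.89 on the CD133 high arrays (difference −1.95, SE 0.20, limma adjusted p = 0.0293). The CD133 high arrays of Cxcr6 all lay over 1 log2 unit below. Cxcr3, a receptor for interferon-induced chemokines, differed by −1.03 (adjusted p = 0.246), Cx3cr1, the fractalkine receptor, by 1.22 (adjusted p = 0.312), and S1pr1, which guides exit from lymph nodes, by −0.54 (adjusted p = 0.324). Xcr1, the receptor of Xcl1, overlapped between fractions, at 5.84, 5.90 and 5.90 against 5.78, 6.31 and 4.96.

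Of 14 transcription factors, Ikzf3, which encodes the lymphocyte factor Aiolos, fell, from 9.31 to 7.57 in the mean (difference −1.74, SE 0.19, limma adjusted p = 0.0349), and the list median was −0.52. The other 2 probe sets of Ikzf3 differed by −1.10 and 1.38 (adjusted p = 0.223 and 0.303), and the mean of its 3 probe sets by −0.49 (adjusted p = 0.378), so the fall holds for its brightest probe set alone. At an unadjusted p under 0.05, 6 were lower and 1 higher. Eomes and Tbx21, the T-box factors that drive Gzmb and Prf1 in killer cells, differed by −1.61 (adjusted p = 0.0782) and −1.91 (adjusted p = 0.127). Eomes read 8.14, 8.11 and 8.32 on the CD133 low arrays, against 6.995, 6.25 and 6.49 on the CD133 high arrays, with no overlap. Tox, a factor of lymphocyte development and exhaustion, differed by −1.28 (adjusted p = 0.0699). Runx3, given because of the Runx letters above, overlapped between fractions (difference −0.23, limma adjusted p = 0.624). The calls of Cxcr6 and Ikzf3 each held in 10 of 19 alternatives. The threshold of 0.1 keeps any such call, and fits that called at most 1 of all probe sets say little about either gene.

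**Figure D4:**
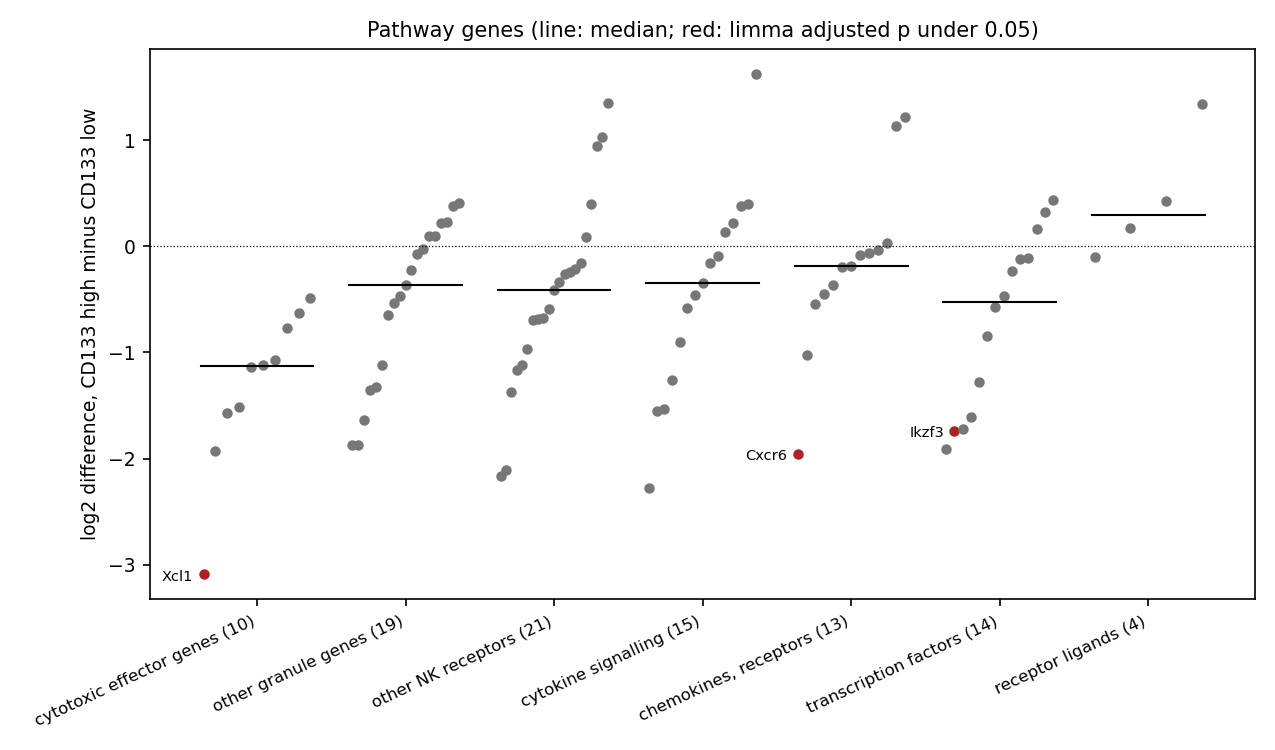
Log2 difference between CD133 high and CD133 low (vertical axis) for each measured gene of 7 lists, with the number of genes in brackets, a line at the list median and red for genes past the threshold. The median of the 10 cytotoxic effector genes, −1.13, lies below those of the other lists drawn, which run from −0.52 to 0.30. Xcl1, Cxcr6 and Ikzf3 are the genes in red. Marker lists of T cells, B cells, and mast cells and basophils are not drawn here and had medians of −1.68, −1.51 and −1.14.

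Markers of other host cells moved with these genes to different degrees, and their part in the result was not tested. Of 13 T-cell markers, 5 fell, namely Cd5, Cd8b1, Cd3e, Cd2 and Cd3g, and the median was −1.68. The log2 of their summed level was 13.36 to 13.60 on the CD133 low arrays, against 11.69 to 12.26 on the CD133 high arrays, beside 12.27 to 12.62 and 10.76 to 11.59 for the 10 cytotoxic genes. Cd3g, a chain of the T-cell receptor complex, read 10.45, 10.63 and 10.45 against 8.47, 7.35 and 7.29. T-cell markers were thus lower on CD133 high replicate 1 also, with a median of −1.51 there. The T-cell markers Cd8a, Cd247 and Cd4 overlapped between fractions, with differences of 0.31, −0.25 and 0.44. Cd4 read only 1.18 to 3.55 over all arrays, low on the scale, so its overlap says little. Cd8a thus did not fall with Cd8b1, and the fall does not hold for the whole list.

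Of 6 B-cell markers 3 fell, Cd79b, Cd79a and Ms4a1, with a list median of −1.51 and summed levels of 12.25 to 12.59 against 10.23 to 11.02. Cd22, Blk and Pax5 overlapped between fractions, with differences of −0.22, 0.11 and 0.07, so the fall does not hold for the whole list. Mast cell and basophil markers, whose granules also hold proteases, had 0 of 8 past the test in limma, 6 lower and 1 higher at an unadjusted p under 0.05, and summed levels of 12.12 to 12.55 against 11.18 to 11.81. Of 8 pan-leukocyte markers 0 passed in limma and 3 were lower at an unadjusted p under 0.05, with summed levels of 15.90 to 15.94 against 15.17 to 16.01. The summed level of macrophage markers overlapped between fractions, with 0 of 9 markers past the test in limma, 1, Mrc1, higher at an unadjusted p under 0.05 without overlap, and summed levels of 15.97 to 16.04 against 15.95 to 16.09. For platelets, which store Ccl5, the summed level overlapped too, with 0 of 5 markers past the test in limma, 1, Gp1bb, higher at an unadjusted p under 0.05 without overlap, and summed levels of 13.10 to 13.19 against 13.08 to 13.42. In limma 0 of 7 neutrophil, 0 of 7 epithelial, 0 of 5 endothelial and 0 of 7 fibroblast markers passed, with 1 epithelial marker lower at an unadjusted p under 0.05 and 0 in the rest, and list medians of −0.17, −0.13, 0.09 and 0.21. The calls of the T-cell and B-cell markers named here each held in 10 to 13 of the 19 alternatives. Among the 19, the threshold of 0.1 keeps any such call. Fits that called at most 1 of all probe sets say little about these markers. No marker of these lists was listed at 0 on any array.

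Among 701 genes of mean log2 value of at least 7 that differed by at least 1 in either direction, 5 followed the average profile of the 10 genes most closely over the 6 arrays. Ms4a4c, a membrane protein gene, had a Pearson r of 0.996, H2-Oa, a chain of the H2-O molecule, 0.995, and the serine protease gene Klk8 0.994. Trbv1, a T-cell receptor beta variable segment, had an r of 0.994, and Kcnab2, a potassium channel subunit gene, 0.993. The members themselves had values from 0.879 for Ncr1 to 0.988 for Nkg7. Each member is part of the average profile, which raises its own value. These values rest on 6 arrays that share their division into fractions, and they describe likeness of pattern alone. Trbv1 read 10.81, 10.78 and 10.52 against 8.48, 7.31 and 6.65 on a probe set that may share sequence with other segments, and it did not pass the test (limma adjusted p = 0.0633).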

How the data were processed

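Total RNA was labelled and hybridised to Affymetrix mouse arrays, per the labels' protocols. The authors deposited 1 value per probe set and array, taken here as log2 from its range; the summarisation and scaling behind it are not given in the sources used. The 45101 probe sets exceed those of the array that the labels name. The 64 array controls were left out. Groups came from the sorted fraction in the labels, which number no replicates. Of the probe sets, 34945 have 1 gene in the platform annotation, 932 several and 9160 none; no symbol changed when matched to RefSeq. A gene is represented by its probe set with the highest mean.

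A linear model per probe set was fitted with limma 3.58.1 (R 4.3.3, data.table version 1.17.8) and moderated with a variance trend. Tests were two-sided, adjusted by Benjamini-Hochberg across 45037 probe sets at 0.05, with no covariate or filter. The fit was tested on simulated data. With 3 arrays a fraction, exact permutation cannot reach 0.05 and was not used. The number of arrays limits the precision. Figures used matplotlib 3.10.9.

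The members, lists, motifs and alternatives were chosen with earlier results of these data known. Named genes are all members, and of each pathway list the genes past the threshold and up to 4 with the smallest p; like genes are the 5 of highest Pearson r to the members' mean profile. Hcst, Xcr1, Runx3, the granzymes named beside Gzmk and the Runx stretches were chosen after their values were seen. Protein sequences were not used here. The 19 alternatives covered scaling, dim probe sets, a floor, the variance model, array weights, probe set averaging, the threshold, the hybridisation controls and each array left out.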

Additional observations from a re-analysis of the deposited data

How the results depend on the processing

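All members kept their direction under all 19 alternatives, except that Prf1 turned to 0.52 with the mean of the probe sets of a gene; without the dimmest 50% of probe sets, Xcl1 and Ncr1 dropped out. The count of members that fell, 1 as reported, was 3 with equal medians, equal 75th percentiles, without the dimmest 25%, with a robust trend or at a threshold of 0.1, 2 without the dimmest 50% or with the mean of the probe sets, 7 with array weights, and 0 with values below 5 set to 5, without a variance trend, with the hybridisation controls as a covariate or in CD133 high replicate 1 alone; leaving out 1 array gave 0 to 7, with 7 without CD133 high replicate 1 and 0 without any other array, where 6 to 8 members were lower at an unadjusted p under 0.05 in limma. In those last fits, 1409 to 2407 of all 45037 probe sets were lower and 1580 to 2618 higher at that p in limma. The member median of −1.13 became −0.56 in CD133 high replicate 1 alone. Over all probe sets, 75 fell and 7 rose; these counts were 152 and 12 with equal medians, 144 and 13 with equal 75th percentiles, 180 and 10 without the dimmest 25%, 164 and 11 without the dimmest 50%, 31 and 5 with the floor, 6 and 1 without a trend, 172 and 13 with a robust trend, 2675 and 2133 with array weights, 69 and 3 with the mean of the probe sets, 170 and 25 at 0.1, and 0 and 0 in CD133 high replicate 1 alone (limma, 2211 and 2477 at an unadjusted p under 0.05). With the hybridisation controls as a covariate, 61 fell and 8 rose. Leaving out 1 array gave 0 to 5326 lower and 0 to 4277 higher, the highest without CD133 high replicate 1. The causes were not tested. No paired analysis was possible because the labels number no replicates. Probe sets near the bottom of the scale, such as that of Xcl1 in the CD133 high fraction, leave the size of a change uncertain.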
